A study of Arabidopsis thaliana with 6 samples.

Results

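The genes described here are those of the plastid genome of Arabidopsis thaliana that encode subunits of the photosynthetic complexes and of the large subunit of Rubisco. They were chosen by annotation, as probe sets of the Affymetrix ATH1 array paired with a single plastid gene whose symbol is psa, psb, pet, atp or ndh (A to K) followed by a capital letter, or rbcL. This gave 43 of the 22746 probe sets that are no array controls. Of these, 5 belong to photosystem I, 15 to photosystem II, 6 to the cytochrome b6f complex, 6 to the ATP synthase, 10 to the NADH dehydrogenase-like (NDH) complex and 1 to Rubisco.

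TNT (2,4,6-trinitrotoluene) is a nitroaromatic explosive, and dimethylformamide (DMF) was its solvent. RNA came from whole Col-0 wild-type plants that had grown for 13 days in shaken liquid culture under a 16 h photoperiod. Each flask had 10 seedlings in 100 ml of medium holding 20 mM sucrose. A stage on plates with 24 h light is also listed for all 6 samples. The TNT group (3 arrays) was dosed with 60 µM TNT in 60 µl of DMF, and the DMF group (3 arrays) with 60 µl of DMF alone; both were sampled 6 h later. Whether the replicates of a group were grown in separate flasks is not given in the labels, so the p-values reflect a spread between samples that may be only technical. The comparison asks whether the transcripts differ after exposure to TNT.

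The plastid keeps a small genome of bacterial origin, and most photosynthetic complexes combine subunits encoded there with subunits encoded in the nucleus. Photosystem II takes electrons from water, the cytochrome b6f complex passes them on while pumping protons, photosystem I delivers them to ferredoxin, the NDH complex returns some of them to the plastoquinone pool, and the ATP synthase uses the proton gradient. Rubisco fixes carbon dioxide in the stroma. Many plastid genes are transcribed together as polycistronic units and are then cut, edited and stabilised by nuclear-encoded proteins.

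No plastid-encoded photosynthesis gene passed the test between TNT and DMF. With all 6 arrays limma called 0 of the 40 members tested at an adjusted p of 0.05, where it called 0% of all 13648 probe sets tested. An unadjusted p under 0.05 was reached by 0 members, against 8.76% of all probe sets (1195). The median log2 difference of TNT minus DMF was -0.24 over the members and -0.02 over all probe sets tested. The TNT mean of the log2 signal was lower in 34 of the 40 members and in 52.3% of all probe sets. Each array was also centred instead on the plastid genes that the symbol rule left out. The median was then 0.10 over the members and 0.33 over all probe sets, and 10 of the 40 were lower. Quantile normalization and median centring left 32 and 35 lower. Directions given from here on are those on the deposited scaling. No interval of 95% around a member's log2 difference excluded 0, and those of 16 members excluded a 2-fold change in either direction. The widest bounds were -3.14 for ndhH and 2.18 for psaA on the log2 scale, so a large change in those members was not detectable with 3 arrays per group.

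The members varied widely among arrays of the same group. The log2 signal of a member spanned 1.39 over the TNT arrays and 0.83 over the DMF arrays in the median, against 0.48 over the TNT arrays and 0.42 over the DMF arrays for all probe sets tested. The span exceeded 1 for 28 members over the TNT arrays and for 16 over the DMF arrays. Of all probe sets, 14.2% did so over the TNT arrays and 8.27% over the DMF arrays. Low signals spread more widely on a log scale, and the 15 members with a mean log2 signal under 8 spanned 2.46 over the TNT arrays and 1.47 over the DMF arrays in the median, where all probe sets in that class spanned 0.50 over the TNT arrays and 0.44 over the DMF arrays. The 12 members at 10 or more spanned 0.58 over the TNT arrays and 0.46 over the DMF arrays, where all probe sets in that class spanned 0.38 over the TNT arrays and 0.33 over the DMF arrays. No test was run on these spans.

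**Figure D1:**
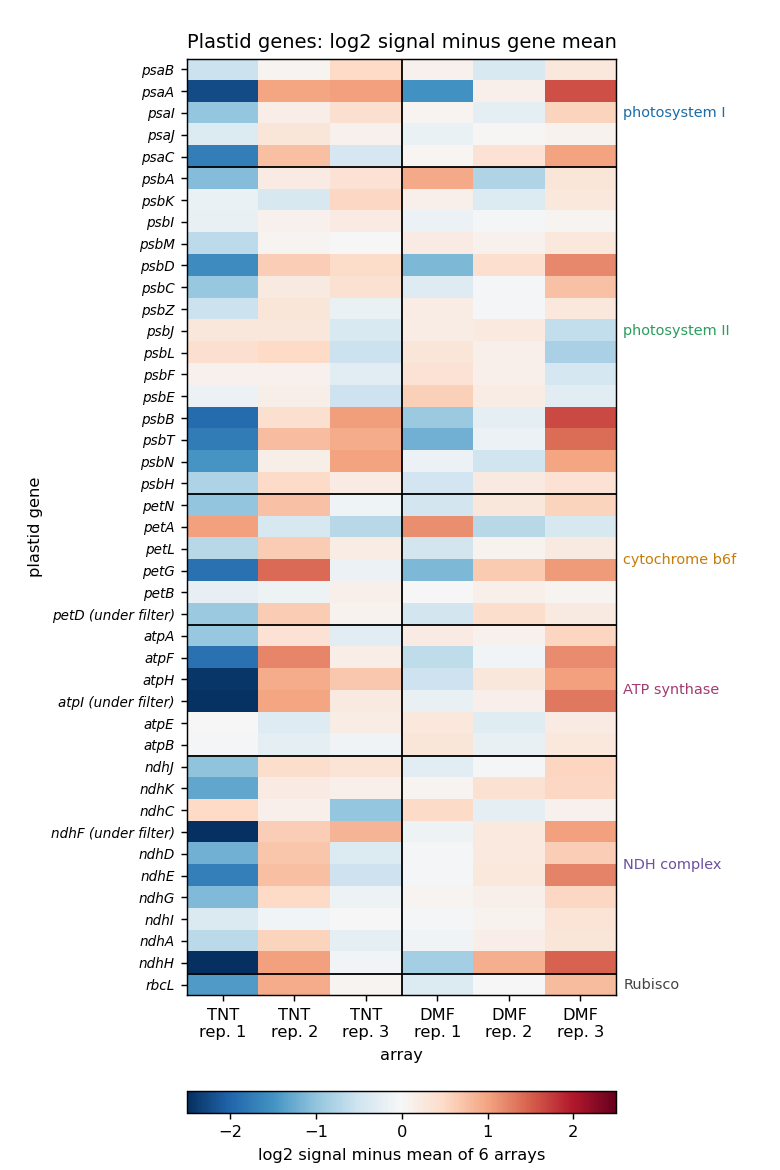
Log2 signal minus the gene's own mean over the 6 arrays (colour) for the plastid-encoded photosynthesis genes, by complex (rows) and array (columns, TNT left of DMF); colours are capped at the ends of the scale. The columns of TNT replicate 1 and, less strongly, DMF replicate 1 are low for many genes, and a minority that includes petA and ndhC is high there.

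**Figure D2:**
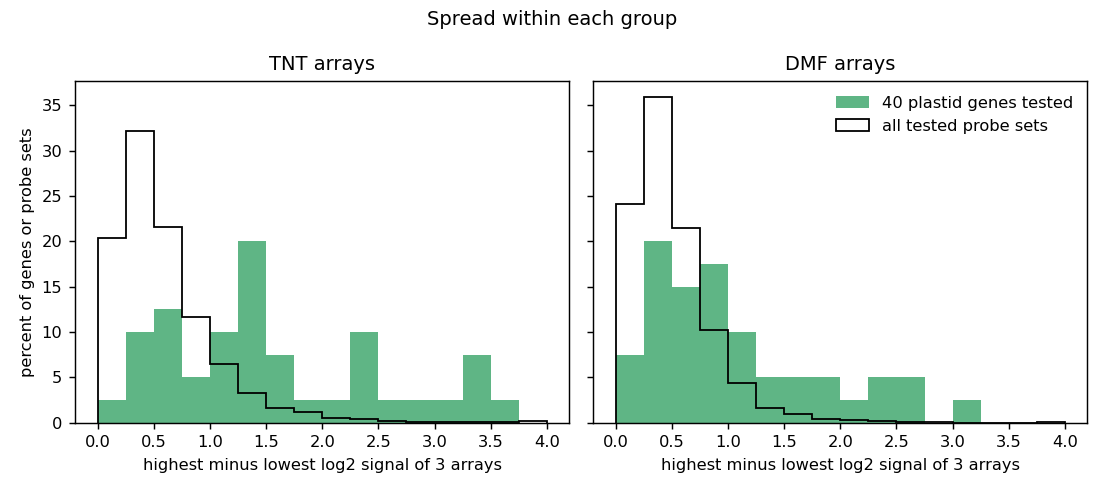
Share of probe sets (vertical axis, percent) by the span of log2 signal within a group, highest minus lowest array (horizontal axis), for the 40 tested members (filled) and for all probe sets tested (outline), TNT left of DMF; the last bin also holds larger spans. The members reach further right in both groups, with medians of 1.39 over the TNT arrays and 0.83 over the DMF arrays.

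Much of this variation followed the replicate numbers. TNT replicate 1 was the lowest TNT array for 31 of 40 members and DMF replicate 1 the lowest DMF array for 24. Both were lowest in their own group for 24 members (60.0%), against 20.7% of all probe sets. The median log2 signal over the members was 8.31, 9.57 and 8.92 on TNT replicates 1, 2 and 3, against 8.89, 9.09 and 9.43 on DMF replicates 1, 2 and 3. Deviations from the group means of arrays with the same number correlated across the 40 members at 0.87, 0.43 and 0.79 for numbers 1, 2 and 3. TNT replicate 2 correlated more with DMF replicate 3, at 0.60, than with DMF replicate 2. The other arrays of unlike number correlated at -0.89 to -0.16. Members share transcription units and arrays, so they are not independent points.

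Over all probe sets the numbers pair the samples, so each member was also read within its pair. The median log2 difference of TNT minus DMF over the members was -0.69 in pair 1, 0.37 in pair 2 and -0.35 in pair 3, while the medians over all probe sets were 0.01, -0.01 and -0.02 in pairs 1, 2 and 3. The TNT signal was lower in 37, 9 and 30 of 40 members in these pairs, against 49.3%, 52.4% and 52.0% of all probe sets. It was lower in pairs 1 and 3 and higher in pair 2 for 23 members (57.5%), against 17.0% of all probe sets, and lower in every pair for 6 members (15.0%), against 20.7% of all probe sets. A difference over 1 on the log2 scale was seen in 13 members in pair 1 and 6 in pair 3, all lower with TNT, and in 1 member in pair 2, which was higher. The share of all probe sets with a difference over 1 is not given here, so these counts have no background. Pair 2 thus ran opposite to the others, and no complex fell in all pairs by its median. A fit with the replicate number as a block also called 0 members, with 3 at an unadjusted p under 0.05, all lower with TNT (8.68% of all probe sets). The lowest adjusted p of a member in that fit was 0.261, for ndhH.

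**Figure D3:**
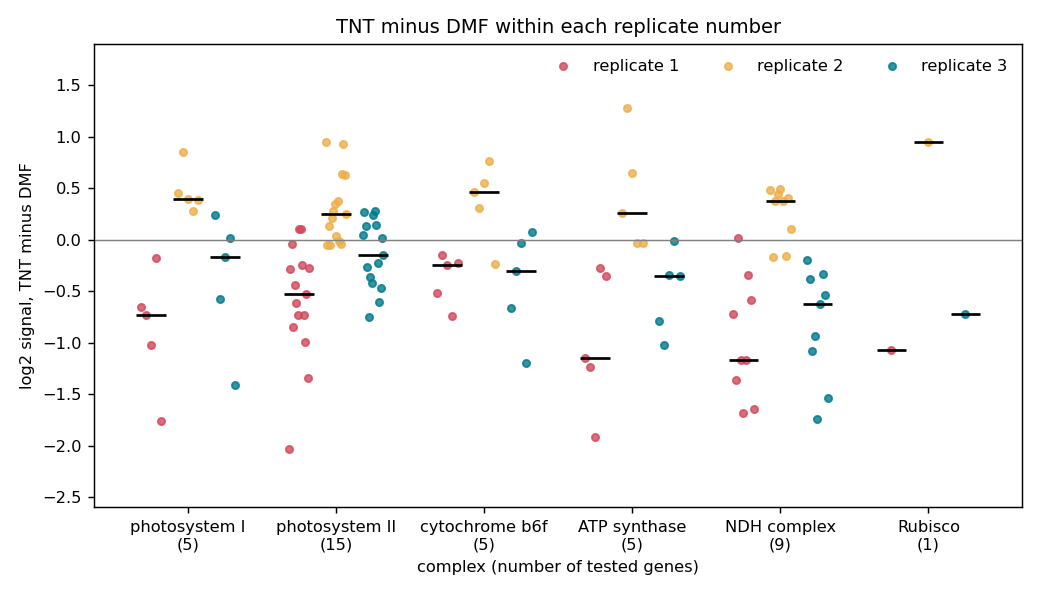
Log2 difference of TNT minus DMF (vertical axis) within replicate pairs 1, 2 and 3 (colours, left to right) for each tested member, by complex (horizontal axis); points are genes and black bars their median. Medians lie below 0 in pairs 1 and 3 and above 0 in pair 2 in every complex.

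Array TNT replicate 2 stood apart from the other TNT arrays over the whole array: its log2 signals correlated with DMF replicate 2 at 0.98 over the 13648 probe sets tested, and with TNT replicates 1 and 3 at 0.89 and 0.91. Over the 40 members it correlated with DMF replicate 2 at 0.99, and with TNT replicates 1 and 3 at 0.93 and 0.95. TNT replicates 1 and 3 correlated with each other at 0.92. By correlation among the members, TNT replicate 2 was thus no further from the other TNT arrays than those were from each other. Correlation does not register a shift in level common to all genes. The members' median log2 signal was 9.57 on TNT replicate 2, against 8.31 and 8.92 on TNT replicates 1 and 3. Without TNT replicate 2, limma called 6.94% of all probe sets (947) and 0 of the 40 members. The members' median log2 difference was then -0.45, against -0.04 for all probe sets, and 8 members (20%) had TNT arrays entirely below the DMF arrays, where 21.6% of all probe sets did. An unadjusted p under 0.05 was reached by 8 members, all lower with TNT, against 11.8% of all probe sets in that direction. The member with the lowest adjusted p was psaC at 0.0641, with a log2 difference of -1.54 ± 0.40 (SE). When arrays were weighted by their fit, 21.2% of all probe sets were called (2896), 11.4% in the lower direction, and 5 of the 40 members fell: atpA, ndhD, ndhE, psaC and psbZ. Without both arrays numbered 2, 10.1% of all probe sets (1374) and 1 member, atpA, were called. TNT replicate 2 was singled out by its own signals. The p-values of fits without it or with array weights, here and below, are therefore no independent support for a difference. Leaving out TNT replicate 1 alone gave a members' median of 0.08 with 17 of the 40 lower, and leaving out both arrays numbered 1 gave -0.01 with 20 lower.

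Photosystem I is built on the large reaction centre proteins PsaA and PsaB, with PsaC carrying the terminal iron-sulfur clusters. The median log2 difference of its 5 members was -0.15, and their medians were -0.73, 0.39 and -0.17 in pairs 1, 2 and 3. The log2 signal of psaC was 5.05, 7.52 and 6.36 on TNT replicates 1, 2 and 3, against 6.82, 7.13 and 7.77 on the DMF arrays. TNT replicates 1 and 3 lay below every DMF array and TNT replicate 2 lay within their range, and the log2 difference was -0.93 ± 0.56 (SE, limma adjusted p = 0.688). For psaA the log2 signals were 5.66, 8.88 and 8.92 with TNT and 6.39, 8.03 and 9.50 with DMF. Array 1 was the lowest in both groups, the DMF span of 3.11 was the widest of all members, and the log2 difference was -0.15 ± 1.01 (SE, limma adjusted p = 0.980).

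Its neighbour psaB had a log2 difference of 0.01 and a DMF span of only 0.64. The small membrane subunit gene psaJ had log2 signals of 10.71, 11.36 and 11.16 with TNT and 10.89, 11.09 and 11.15 with DMF, a difference of 0.04 ± 0.19 (SE, limma adjusted p = 0.978). Its span was 0.65 over the TNT arrays and 0.25 over the DMF arrays. The groups overlapped for psaJ, as they did for psaI, another small subunit, whose log2 difference was -0.27.

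Photosystem II holds the D1 and D2 reaction centre proteins (psbA, psbD), the inner antennae CP47 and CP43 (psbB, psbC), cytochrome b559 (psbE, psbF) and many small membrane subunits. Its 15 members had a median log2 difference of -0.23, with 12 lower and 3 higher. The small subunit gene psbM was the only member of any complex whose groups did not overlap (1 of 40; 6.07% of all probe sets were non-overlapping in the lower direction and 12.3% in either). Its log2 signal was 10.73, 11.45 and 11.38 with TNT, against 11.58, 11.50 and 11.65 with DMF. The highest TNT array lay 0.05 below the lowest DMF array, and the log2 difference was -0.39 ± 0.20 (SE, limma adjusted p = 0.638).

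At the other end, psbL, a small subunit gene, had the highest log2 difference of all members, 0.25 ± 0.36 (SE, limma adjusted p = 0.90). Its log2 signal was 9.52, 9.60 and 8.57 with TNT and 9.42, 9.23 and 8.30 with DMF, so arrays numbered 3 were lowest in both groups. The small subunit gene psbT showed log2 signals of 5.04, 7.56 and 7.71 with TNT and 5.57, 6.63 and 8.18 with DMF. Its difference of -0.02 ± 0.83 (SE) stood beside spans of 2.67 over the TNT arrays and 2.61 over the DMF arrays.

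The D1 gene psbA is the classic light-regulated plastid message. It had log2 signals of 6.91, 8.20 and 8.34 with TNT and 8.94, 7.25 and 8.29 with DMF, and differed by -2.03 in pair 1 and 0.95 in pair 2. DMF replicate 1 was its highest array, unlike for most members. The genes of the other core proteins, psbB, psbC and psbD, had log2 differences of -0.32, -0.23 and -0.33. The cytochrome b559 genes psbE and psbF stood at -0.34 and -0.04. Among the small subunit genes, psbH, psbI, psbJ, psbK and psbZ lay between -0.27 (psbZ) and 0.13 (psbJ), and psbN, whose product is known from tobacco to act in assembly, stood at -0.23.

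In the cytochrome b6f complex, petA encodes cytochrome f, petB cytochrome b6 and petD subunit IV, and petG, petL and petN encode small subunits. The 5 tested members had a median log2 difference of -0.13. The log2 signal of petB was 11.05, 11.14 and 11.38 with TNT and 11.27, 11.38 and 11.31 with DMF, and its DMF span of 0.11 was the narrowest of all tested members. The groups overlapped, and its log2 difference was -0.13 ± 0.14 (SE, limma adjusted p = 0.842). By contrast petG spanned 3.27 over the TNT arrays and 2.18 over the DMF arrays, with log2 signals of 4.29, 7.56 and 6.01 with TNT and 5.03, 6.80 and 7.21 with DMF. Its log2 difference was -0.39 ± 0.84 (SE, limma adjusted p = 0.934).

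The highest log2 difference of this complex was that of petL, 0.09 ± 0.34 (SE, limma adjusted p = 0.968), with log2 signals of 8.48, 9.82 and 9.37 with TNT and 8.73, 9.27 and 9.40 with DMF. For petN the log2 difference was -0.24. Cytochrome f went the other way across replicate numbers: petA had log2 signals of 10.38, 8.97 and 8.66 with TNT and 10.53, 8.66 and 8.96 with DMF. Both arrays numbered 1 were its highest by over 1 on the log2 scale, and its log2 difference was -0.05. The same order, with the arrays numbered 1 highest in both groups, was found in 4 of 40 members (10%, against 15.9% of all probe sets), the others being psbF, atpB and ndhC.

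The 5 tested ATP synthase members had a median log2 difference of -0.33. The alpha, b and c subunit genes atpA, atpF and atpH, which lie together, had log2 differences of -0.56, -0.33 and -0.54. The beta and epsilon subunit genes atpB and atpE, which form another unit, had -0.25 and -0.11; the difference between the units was not tested. The log2 signal of atpA was 9.40, 10.69 and 10.08 with TNT, against 10.54, 10.44 and 10.88 with DMF. TNT replicates 1 and 3 lay below every DMF array and TNT replicate 2 between them, for a log2 difference of -0.56 ± 0.31 (SE, limma adjusted p = 0.654). Without TNT replicate 2 the difference was -0.88 ± 0.23 (SE, limma adjusted p = 0.0642), with array weights the adjusted p was 0.0155, and without both arrays numbered 2 it was 0.0493.

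The epsilon subunit gene atpE, with log2 signals of 11.17, 10.86 and 11.37 with TNT and 11.44, 10.89 and 11.38 with DMF, differed by -0.11 ± 0.20 (SE, limma adjusted p = 0.925). Its arrays numbered 2 were lowest in both groups. For atpH and atpF the TNT arrays spanned 3.37 and 3.08, and atpF was the member with a difference over 1 in pair 2, 1.28.

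All 9 tested NDH members had a lower TNT mean, with a median log2 difference of -0.47 and medians of -1.17, 0.37 and -0.63 in pairs 1, 2 and 3. Centring on the other plastid genes gave a median of -0.13, and leaving out single arrays gave medians of -0.84 to -0.10. The lowest adjusted p was 0.680 (limma), for ndhI. The lowest log2 difference of any tested member was that of ndhH, a subunit of the stromal arm, with log2 signals of 2.46, 5.97 and 4.90 with TNT against 4.10, 5.87 and 6.44 with DMF. On TNT replicate 1 its signal was 5.50 on the linear scale, under the highest bacterial control of that array at 7.76. The log2 difference was -1.03 ± 0.92 (SE, limma adjusted p = 0.803). In the membrane arm, ndhE had a log2 difference of -0.98 and ndhD of -0.56, with TNT replicates 1 and 3 below every DMF array in both genes.

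The highest log2 difference of the complex was that of ndhJ, a stromal arm subunit, -0.15 ± 0.41 (SE, limma adjusted p = 0.954). Its log2 signals were 4.79, 6.22 and 6.13 with TNT and 5.51, 5.74 and 6.33 with DMF, and the groups overlapped. The stromal arm genes ndhI and ndhK had log2 differences of -0.28 and -0.64, and the membrane arm genes ndhA, ndhC and ndhG had -0.24, -0.23 and -0.47. A further NDH gene, ndhB, lies in the inverted repeat as 2 copies and was left out, since its probe set is paired with both; its log2 signals were 3.66, 4.92 and 3.92 with TNT and 3.85, 5.18 and 4.48 with DMF.

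The large subunit of Rubisco, rbcL, had log2 signals of 5.47, 7.82 and 6.96 with TNT, against 6.54, 6.88 and 7.68 with DMF. TNT replicate 1 was the lowest array and TNT replicate 2 the highest, and the log2 difference was -0.28 ± 0.56 (SE, limma adjusted p = 0.928). Its pair differences of -1.07, 0.95 and -0.72 in pairs 1, 2 and 3 ran like those of most members.

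The filter on low signal left 3 members untested. These were atpI (the a subunit of the ATP synthase), petD and the membrane arm gene ndhF. For atpI the log2 signals were 1.36, 4.82 and 4.05 with TNT and 3.64, 3.97 and 5.14 with DMF. The values of petD were 2.81, 4.38 and 3.83 with TNT and 3.28, 4.18 and 3.98 with DMF, while ndhF lay under the highest bacterial control on all 6 arrays. Both atpI and petD lay under it on TNT replicate 1 only, so their lowest values are no measured level.

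The labelling kit primes on poly(A) tails. Plastid messages carry few and short ones, which mark them for decay, so a signal can follow the tailed share of a message as well as its amount, and these cannot be told apart here. In RNA from whole plants, fewer green cells and less plastid RNA per cell cannot be told apart either. The genes psbD and psbC overlap on the plastid genome, as do atpB and atpE. Probe positions were not examined, so whether a signal for 1 gene of a pair includes the other is not known. Whether probes also match nuclear or mitochondrial copies of plastid sequence was not examined.

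Place on the plastid genome was reflected in how the members varied over the 6 arrays. Correlations of log2 signal over the 6 arrays had a median of 0.88 among the 47 pairs of members from the same known polycistronic unit, and of 0.58 among the 733 pairs from different units. They exceeded 0.9 in 48.9% of pairs within a unit and in 16.1% of pairs between units. Of the 47 pairs, 21 came from the unit of psaC to ndhH; the 26 pairs of the other units had a median of 0.83, and 30.8% of them exceeded 0.9. Pairs sorted by complex had medians of 0.60 over 171 pairs within a complex and 0.63 over 609 pairs between complexes. All pairs share the same 6 arrays and their scaling, and neighbouring members share precursor transcripts.

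**Figure D4:**
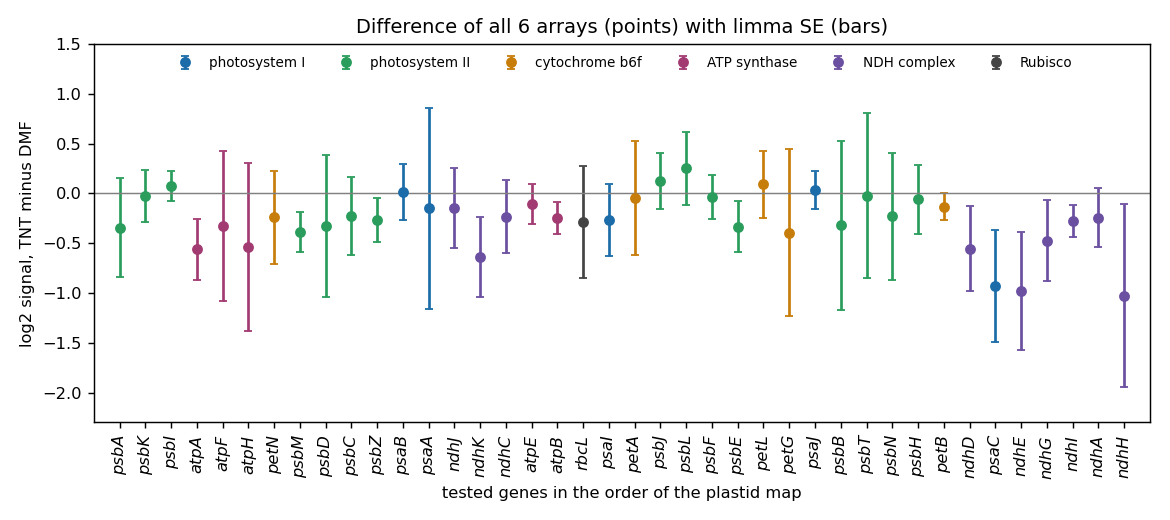
Log2 difference of TNT minus DMF over all 6 arrays (vertical axis; points, with bars of 1 SE from limma) of the 40 tested members in the order in which they lie on the plastid genome (horizontal axis), coloured by complex. The lowest values, -0.93 for psaC, -0.98 for ndhE and -1.03 for ndhH, lie at the right end, in the unit from psaC to ndhH. Between ndhE and ndhH, the genes ndhG, ndhI and ndhA stand at -0.47, -0.28 and -0.24.

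The unit from psaC to ndhH was the largest one tested. All 7 of its tested genes (psaC, ndhD, ndhE, ndhG, ndhI, ndhA and ndhH) were lower with TNT in pairs 1 and 3, and 1 of 7 was lower in pair 2. Their correlations over the 6 arrays lay between 0.65 and 0.99, and psaC, a photosystem I gene, correlated with its neighbour ndhE at 0.99. The unit from psbE to psbJ varied differently: its 4 genes were lowest on the arrays numbered 3 in both groups, with correlations of 0.68 to 0.98. In the unit from psbB to petD, psbB and psbT correlated at 0.98, while petB, nearly level across the arrays, correlated with psbH at 0.50.

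In 2 further units some genes ran against others. In the unit that starts with psaI and ends with petA, those genes correlated at -0.56, and 2 plastid genes between them, ycf4 (a photosystem I assembly factor) and cemA (an envelope membrane protein), were highest on both arrays numbered 1, as petA was. The log2 signal of cemA was 9.31, 8.52 and 8.59 with TNT and 9.94, 8.38 and 8.93 with DMF, and that of ycf4 was 8.40, 8.13 and 7.74 with TNT and 8.99, 7.82 and 8.28 with DMF. In the unit of ndhC, ndhK and ndhJ, ndhC correlated with ndhJ at -0.53 although ndhK and ndhJ correlated at 0.88. For psaA and psaB the correlation was 0.66.

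**Figure D5:**
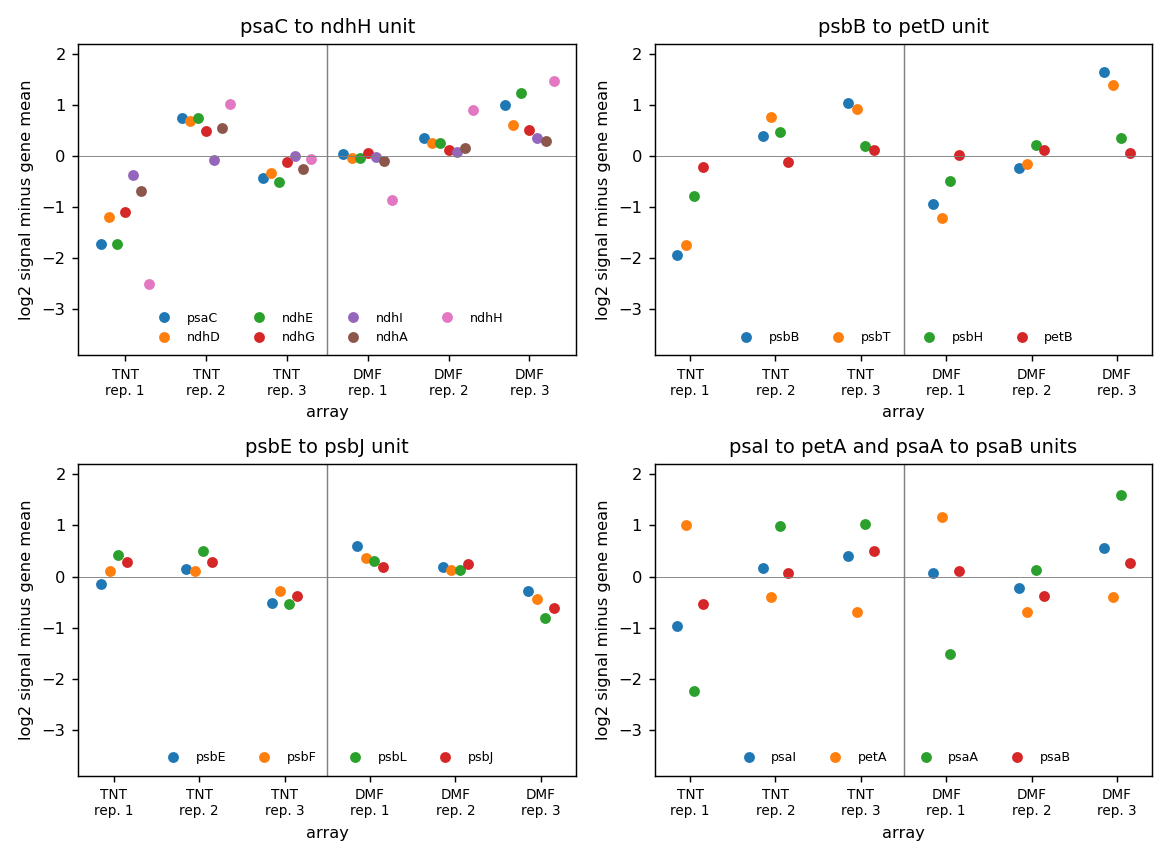
Log2 signal minus the gene's mean over the 6 arrays (vertical axis) by array (horizontal axis, TNT left of DMF) for the genes of 5 polycistronic units. In the psaC to ndhH unit the genes are low together on TNT replicate 1, in the psbE to psbJ unit they are low on both arrays numbered 3, and petA runs against psaI.

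The plastid genes that the symbol rule left out had similar values. Of these 26 genes (ribosomal proteins, RNA polymerase subunits and others, among them the assembly factor gene ycf4), 24 were tested. Their median log2 difference was -0.39, with 23 lower with TNT and 0 called with 6 arrays, and their medians were -0.73, 0.06 and -0.44 in pairs 1, 2 and 3. The difference between these genes and the members was not tested. Without TNT replicate 2, 2 of the 24 fell (3.25% of all probe sets fell): matK, the plastid intron maturase, by 1.16 on the log2 scale (limma adjusted p = 0.0134), and rps16, a ribosomal protein gene, by 1.09 (limma adjusted p = 0.0490).

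The nuclear partners of these complexes had narrower spans. Of 20 annotated nuclear genes for subunits, antennae and NDH factors, 19 were tested, and 0 passed with 6 arrays. Their median log2 difference was -0.21, with 13 lower and 6 higher, and their log2 signal spanned 0.45 over the TNT arrays and 0.51 over the DMF arrays in the median. Their medians in pairs 1, 2 and 3 were -0.40, 0.04 and -0.18. The lowest p-values belonged to NdhL and NdhN, NDH subunits, and to CRR21 and CRR42, found in mutants that lack NDH activity, with log2 differences of -0.64, -1.09, -0.56 and -0.69. NdhN had log2 signals of 6.15, 7.61 and 5.86 with TNT, against 7.68, 7.55 and 7.67 with DMF, so TNT replicates 1 and 3 lay apart from the other 4 arrays. It was the only gene of this list that fell without TNT replicate 2 (-1.63, limma adjusted p = 0.00165).

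A list of nuclear factors of plastid RNA processing had 18 annotated genes, of which 12 were tested and 0 passed with 6 arrays. All 12 had a lower TNT mean (52.3% of all probe sets did), with a median log2 difference of -0.41, and 0 passed without TNT replicate 2. Beside NdhL, CRR42 and CRR21, which are on both lists, the lowest p was that of OTP84, an RNA editing factor of plastid transcripts, with a log2 difference of -0.63. The list also holds genes that do something else, such as HCF101, an iron-sulfur carrier for photosystem I (-0.40). NdhL and NdhS, NDH subunits, were matched through synonyms. The lower means of all 12 are thus not those of RNA processing factors alone. With array weights, where 11.4% of all probe sets fell, 7 of these 12 genes fell. So did 7 of the 19 nuclear partners and 6 of the 24 other plastid genes. The lists of 12 and 19 share NdhL, NdhS, CRR41, CRR21, CRR42 and CRR22. All of these but NdhS fell, so the counts of the lists overlap.

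Of the genes that mark green tissue, 2 of 12 had a probe set paired with them alone. The log2 signal of RCA, Rubisco activase, was 11.08, 11.21 and 11.46 with TNT and 11.65, 11.46 and 11.60 with DMF. That of PRK, phosphoribulokinase, was 9.98, 10.56 and 10.09 with TNT and 10.80, 10.57 and 10.88 with DMF. Both lay far above the bacterial controls on every array, and both had a lower TNT mean, by 0.32 and 0.54 on the log2 scale, without passing the test with 6 arrays; without TNT replicate 2, PRK fell by 0.71 (limma adjusted p = 0.0341). Their part in the values of the plastid genes was not tested. Of 8 root markers 3 were found, with log2 differences of -0.07 (PYK10), -1.06 (EXPA18) and -0.87 (EXPA7), and of 7 senescence markers 3, with 1.86 (WRKY6), 0.60 (WRKY53) and 0.54 (SAG101); none passed with 6 arrays. Without TNT replicate 2, EXPA18 fell by 1.35 on the log2 scale (limma adjusted p = 0.0126) and WRKY6 rose by 2.82 (limma adjusted p = 0.00124; 3.69% of all probe sets rose), while the other root and senescence markers did not pass. The 8 tested mitochondrial genes had a median log2 difference of 0.01 with medians of -0.13, 0.15 and 0.10 in pairs 1, 2 and 3.

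Signals of an array control moved with the replicate number as well. The control probe set for cytoplasmic 25S ribosomal RNA read 965.5, 39.4 and 26.7 on the linear scale on TNT replicates 1, 2 and 3, against 696.4, 13.7 and 26.3 on DMF replicates 1, 2 and 3. The arrays numbered 1, on which most members were lowest, were thus the ones with high ribosomal RNA signal in both groups, and its part in the members' values was not tested. The 3′ over 5′ signal of ubiquitin was 0.67 ± 0.05 with TNT and 0.85 ± 0.02 with DMF on the log2 scale (SD, n = 3 each; exact permutation test, two-sided, p = 0.1, the smallest it can give). For actin it was 0.51 ± 0.01 with TNT and 0.51 ± 0.18 with DMF (exact permutation p = 1). For GAPDH it was 0.08 ± 0.10 with TNT and 0.05 ± 0.13 with DMF (exact permutation p = 0.7). The arrays had median signals of 40.1 to 50.8, and 73.8% to 80.7% of their probe sets lay above all bacterial controls.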

How the data were processed

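RNA of 6 samples (3 TNT, 3 DMF) was hybridised to ATH1 arrays after 3′ labelling, per the labels. The deposited values are intensity values on a linear scale, 1 per probe set. MAS5 and GCOS are named in the submitters' processing notes as the authors' tools, without versions or scan settings. Trimming 2% from each end of a column left a mean of 100.01 on every array, so they had been scaled to a common level. No 2 arrays held identical values. Titles gave the replicate numbers, except for 1 TNT sample, called replicate 1 because 2 and 3 were taken.

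From the 22810 probe sets, 64 controls were removed. In the platform annotation 13513 of the others had 1 gene, 503 had several, and 8730 are unnamed here. Symbols and genome came through gene identifiers from the TAIR10.1 RefSeq table, which matched 13436. It was used for names and gene order; coordinates are not printed, since no build is named for the files. Of 45 plastid loci with matching symbols, 43 had a probe set of their own. Mitochondrial genes were taken by platform symbol.

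Signals were taken to log2 with no offset. The test covered the 13648 probe sets with a mean log2 signal over the 6 arrays from the 40th percentile upwards. It was a two-sided limma 3.58.1 fit in R 4.3.3 (lmFit, eBayes with intensity trend), adjusted over all of them by Benjamini-Hochberg, with a threshold of 0.05. The number of arrays limits the precision. The highest signal of a bacterial control probe set, 6.34 to 14.3 across arrays, served as a floor. The fit was tested on simulated data.

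Members and gene lists were chosen with earlier results of these data known. Per-array values are given for members whose groups do not overlap, the highest and lowest log2 difference of each complex, the 2 widest and 2 narrowest spans over the DMF arrays, rbcL and psaC; lists give up to 4 genes by p. The values of psbA, petA, ndhB, atpI, petD, cemA, ycf4, NdhN and HCF101 were added after they had been seen. A list of plastid transcription factors matched only PAP20 and PAP85, which are no such factors and lay under the filter.

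The alternatives were 2 other filters (none, 60th percentile), 16 added before log2, 3 normalizations (quantile, median centring, centring on the other plastid genes), a fit with no intensity trend, array weights, the replicate block, leaving out each array or both arrays numbered 1 or 2, and 1-gene probe sets alone. Without both arrays numbered 3, and a filter on the mean linear signal, were added after seeing the data. Deviations of same-numbered arrays from their group means correlated over 13648 probe sets at 0.54, 0.47 and 0.43 for numbers 1, 2 and 3, all over 0.1, so the numbers pair the samples; the labels do not give the source of the pairing.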

Additional observations from a re-analysis of the deposited data

Results flagged for a closer look

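The array's own control for 25S ribosomal RNA, which lies outside the gene measurements, read 965.5 on TNT replicate 1, above every DMF array (696.4, 13.7 and 26.3 on replicates 1, 2 and 3). The other TNT arrays read 39.4 and 26.7. Groups of 3 arrays are too small for a test of outlying samples, so none was run on the members.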

How the results depend on the processing

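No alternative turned a count of calls among the members above 0 except array weights (5) and leaving out both arrays numbered 2 (1); leaving out single arrays gave 0 to 0. Over all probe sets, 0 calls became 344 with centring on the other plastid genes, 2896 with array weights, 1374 without both arrays numbered 2 and 0 to 947 without single arrays, with 947 for TNT replicate 2 and 3 for DMF replicate 2. The replicate block, in which the numbers pair the samples, called 0 members and 0 probe sets, and moved no other call. Of the named genes' values, 240 kept direction and side of the threshold, 35 changed sign, and 3 passed (atpA with array weights and without both arrays numbered 2, psaC with array weights); the cause was not tested.

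Centring on the other plastid genes gave medians of 0.12 for photosystem II and 0.22 for cytochrome b6f, and log2 differences of 0.24 for atpE, 0.20 for ndhJ, 0.22 for petB, 0.20 for psaA, 0.32 for psbT and 0.066 for rbcL; this centring itself shifts the median of all probe sets to 0.33. Without single arrays the medians ran from -0.40 to 0.11 for photosystem II, -0.23 to 0.19 for cytochrome b6f and -0.88 to -0.13 for the ATP synthase, which was -0.97 without both arrays numbered 2. The log2 differences ran from -0.28 to 0.031 for atpE, -0.40 to 0.31 for ndhJ, -1.20 to 0.44 for petG, -0.21 to 0.46 for petL, -0.94 to 0.93 for psaA, -0.11 to 0.22 for psaJ, -0.092 to 0.58 for psbL, -0.64 to 0.84 for psbT and -0.82 to 0.36 for rbcL. Array weights gave -0.10 for petL and -0.036 for psaJ, and leaving out both arrays numbered 2 gave -0.14 and -0.084 for the same genes. Without both arrays numbered 1 the values were 0.14 for ndhJ, 0.14 for psaA, 0.23 for psbT and 0.11 for rbcL. Without both arrays numbered 3, added after seeing the data, they were 0.0076 for petG, 0.062 for psaA and 0.20 for psbT. An offset of 16 gave 0.0031 for psbT.

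Low signals limit ndhF on all arrays, and atpI, petD and ndhH on TNT replicate 1.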
